A study of Mus musculus with 10 samples.

Results

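IGKV4-91, known in the older nomenclature as a VK4 gene, is 1 of the variable segments of the mouse immunoglobulin kappa light chain locus. Its rearrangements were taken from the tables of kappa clonotypes as the rows that list IGKV4-91 as the only V gene, which gave 1508 clonotypes of 44103 in the 6 kappa libraries. A further 2 rows, of 1 read each, list it together with another IGKV4 gene and were left out. A clonotype is a rearrangement with its own V gene, J gene and CDR3 amino acid sequence as the assignment software delivered it, and the CDR3 is the loop that the V to J junction encodes. Summing rows that repeat these 3 features left 878 different combinations of J gene and CDR3 and 762 different CDR3s. RefSeq places Igkv4-91 on chromosome 6 of the mouse build GRCm38.p6, from base 68768555 to base 68769103, as a V segment that spans 549 bases. The 5 J segments lie from base 70722562 to base 70723923 of that chromosome, and the constant gene Igkc follows them.

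Genomic DNA was amplified from sorted peritoneal cavity B cells of C57BL/6 mice aged 6 to 8 weeks, in 3 groups of 2 libraries: wild-type (WT) B-1a cells, B-1a cells of Igll1 knockout (Igll1-/-) mice, and WT B-2 cells. Igll1 encodes lambda5, a part of the surrogate light chain with which the pre-B cell receptor is built, and the knockout mice carry no other allele or treatment in the labels. The libraries hold 5701 to 8652 kappa clonotypes and 214000 to 288396 reads each. Cells were sorted by surface markers, and the tables hold rearranged DNA and no expression, so the cell type labels could not be set against marker genes. Libraries of 1 group differed by more than sampling noise in their V gene counts (chi-square of 301 with 101 degrees of freedom in WT B-1a, 780 with 101 in Igll1-/- B-1a and 164 with 102 in WT B-2), so neither library of a group is a copy of the other. Whether the 2 were prepared from the same cells was not tested. The labels do not say whether 2 libraries of a group come from different mice, and p-values measure the spread between these libraries only.

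A kappa light chain is made when 1 V segment is joined to 1 J segment, and IGKJ3 is known as a J segment that does not give a functional chain. B-1a cells of the peritoneal cavity are known for a repertoire that is shared between mice, in which some heavy and light chain segments pair again and again to bind phosphatidylcholine. One such pair is VH12 with the light chain of IGKV4-91, and another is VH11 with the light chain of IGKV14-126. The primer mixture of the study included primers added for such segments, IGKV4-91 among them. The share and rank of a V gene, by reads or by clonotypes, can thus depend on its primers as well as on its rearrangements.

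The CDR3s of the 8 IGKV4-91 clonotypes with the highest mean share of IGKV4-91 reads over the 6 libraries show how narrow the set is, and they are given here with their J gene because the values that follow turn on them.
clonotype 1, IGKJ5: QQGSSIPLT
clonotype 2, IGKJ2: QQGSSIPRT
clonotype 3, IGKJ2: QQGSSIPYT
clonotype 4, IGKJ2: QQGSSIPFT
clonotype 5, IGKJ5: QQGSSIPRT
clonotype 6, IGKJ5: QQGSSIPT
clonotype 7, IGKJ5: QQGSSILT
clonotype 8, IGKJ5: QQGSSIPFT

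All 8 start with QQGSSI. The 6 of 9 residues are alike except at position 8, counted from 1 at the first residue of the CDR3, where they carry L, R, Y or F. Clonotypes 6 and 7 have 8 residues. CDR3s that start with QQGSS made up 35.0% to 56.2% of the IGKV4-91 clonotypes of a library but 93.5% to 97.2% of its IGKV4-91 reads. Over all libraries, each of the positions 1 to 7 and 9 of the productive 9-residue CDR3s held 1 residue in 98.1% of reads or more (I at position 6, the most varied of these). At position 8 the reads split into 68.7% L, 16.1% R, 9.86% Y and 3.82% F. The F reads came mostly from Igll1-/- B-1a replicate 1, where F held 56.1% and Y 0.649%, and without that library F held 0.811%.

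IGKV4-91 had the most clonotypes of the kappa V genes in the WT B-1a libraries. Its share of clonotypes was smaller in Igll1-/- B-1a and smallest in WT B-2. It gave 473 of 7234 clonotypes (6.54%, Wilson 95% interval 5.99 to 7.13) in WT B-1a replicate 1 and 420 of 6963 (6.03%, 5.50 to 6.62) in replicate 2. In Igll1-/- B-1a it gave 158 of 5701 (2.77%, 2.38 to 3.23) and 220 of 6940 (3.17%, 2.78 to 3.61). In WT B-2 it gave 125 of 8652 (1.44%, 1.21 to 1.72) and 112 of 8613 (1.30%, 1.08 to 1.56). The ranges of the 3 groups did not overlap. Among the V genes it ranked first in both WT B-1a libraries, 10 and 7 in Igll1-/- B-1a, and 19 and 27 in WT B-2. By reads it held 12% and 12.2% of the WT B-1a libraries, 2.01% and 3.65% of the Igll1-/- B-1a libraries, and 1.46% and 1.32% of the WT B-2 libraries. The intervals cover counting error only, since reads without molecular identifiers are not independent molecules.

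**Figure D1:**
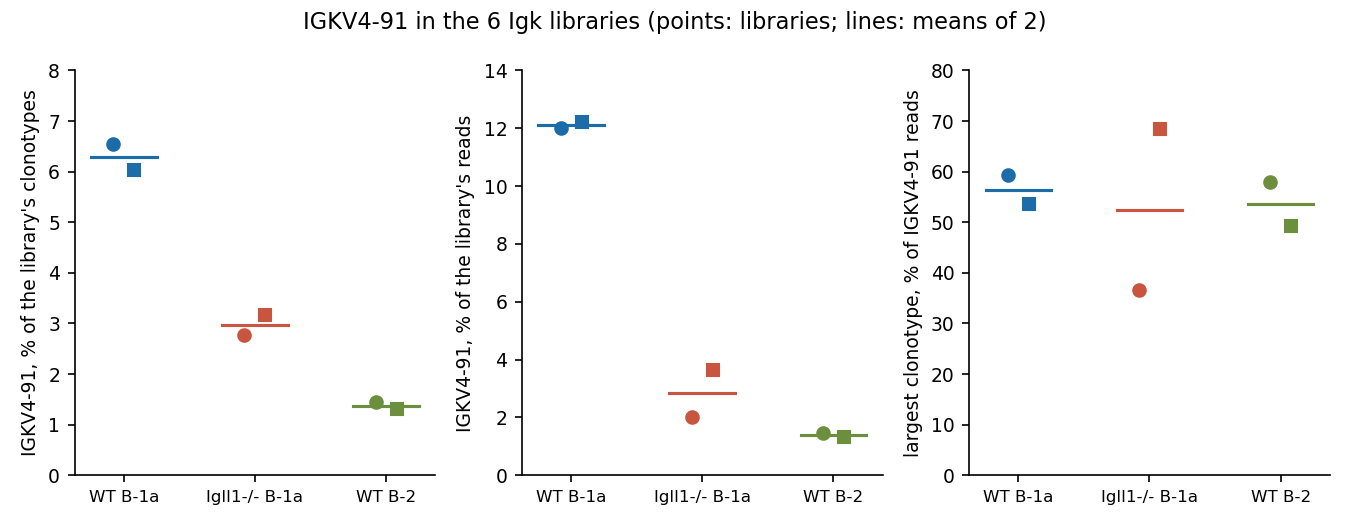
IGKV4-91 in each of the 6 kappa libraries as a percentage of clonotypes (left) and of reads (middle), with the largest IGKV4-91 clonotype as a percentage of IGKV4-91 reads (right); points are libraries and lines are means of 2. The 3 groups separate in the first 2 panels, whereas the largest clonotype holds 36.6% to 68.4% of the reads with overlapping groups.

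In edgeR's quasi-likelihood test over 84 V genes, the share of clonotypes was lower in Igll1-/- than in WT B-1a (log2 difference -1.08 ± 0.16 SE, adjusted p = 0.00055), in a comparison in which 17.9% of the V genes passed. It was higher in Igll1-/- B-1a than in WT B-2 (1.11 ± 0.17, adjusted p = 0.00066; 22.6% of V genes passed), and higher in WT B-1a than in WT B-2 (2.19 ± 0.17, adjusted p = 3.6e-06; 3.57% passed). The medians over all 84 genes were -0.17, -0.49 and -0.22 in these comparisons. When CDR3s 1 residue away from a clonotype with at least 10 times their reads were merged into it, the difference between Igll1-/- and WT B-1a was -0.56 with an adjusted p of 0.125. In reads, the comparison of Igll1-/- B-1a with WT B-2 gave 1.03 with an adjusted p of 0.0833.

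Of the other IGKV4 genes of the family, 24 were tested with edgeR. In Igll1-/- against WT B-1a, 1 (IGKV4-53) was higher and none lower, or 4.17% beside the 17.9% over all V genes, with a family median of -0.14 beside -0.17 for all genes. Against WT B-2, IGKV4-53 was higher and 4 were lower in Igll1-/- B-1a (IGKV4-52, IGKV4-69, IGKV4-73 and IGKV4-81), or 20.8% beside 22.6%, with medians of -0.45 and -0.49. None of the 24 passed between WT B-1a and WT B-2 by edgeR or DESeq2, 4 had an unadjusted p under 0.05 in edgeR, and the medians were -0.25 and -0.22. Over the 6 libraries, the V genes whose share of clonotypes followed that of IGKV4-91 most closely were IGKV14-126 (Pearson r = 0.864), IGKV2-112 (0.836, at 0.151% to 0.276% of clonotypes) and IGKV9-128 (0.815), of 84. IGKV7-33, another light chain gene listed for B-1a cells, had an r of 0.688. These values describe 3 pairs of libraries from 1 sort design each and carry no test. IGKV14-126, the light chain partner of VH11, held 4.89% and 5.29% of the clonotypes in WT B-1a and 0.684% and 0.735% in Igll1-/- B-1a, below its 1.65% and 1.47% in WT B-2. IGKV4-91 in Igll1-/- B-1a was above its level in WT B-2, whereas IGKV14-126 was below (log2 difference -1.14 ± 0.22, adjusted p = 0.0030 by edgeR).

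The J gene was chosen unevenly. IGKJ5 was joined in 43.0% to 67.7% of the IGKV4-91 clonotypes of a library and IGKJ2 in 20% to 35.7%. By reads, IGKJ5 held 79.4% and 78.9% in WT B-1a, 43.9% and 91.7% in Igll1-/- B-1a, and 79.0% and 77.5% in WT B-2. The WT libraries thus lay within 2 percentage points of each other, and the Igll1-/- libraries lay on either side of them. IGKJ2 held 20.1% and 20.6% of the reads in WT B-1a, 44.2% and 6.46% in Igll1-/- B-1a, and 20.6% and 22.0% in WT B-2. IGKJ4 held 10.9% of the reads in Igll1-/- B-1a replicate 1 and 0.142% to 1.45% in the other 5 libraries. IGKJ3 held at most 0.0712% of the reads of any library. In Igll1-/- B-1a replicate 1, 6.33% of the clonotypes carried several J genes or none, compared with 0% to 0.80% in the other libraries.

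IGKJ1 held a smaller share of IGKV4-91 than of the other V genes in each library. It was found in 4.46% to 9.09% of the IGKV4-91 clonotypes of a library, against 21.2% to 29.8% of the clonotypes of all other V genes in the same libraries. In the library with the fewest IGKV4-91 clonotypes, WT B-2 replicate 2, the 5 IGKJ1 clonotypes of 112 (4.46%) have a Wilson 95% interval of 1.92 to 10.03. By reads the gap was wider: 0.158% to 0.720% for IGKV4-91 against 15.7% to 31.5% for the other genes. IGKV4-91 was below the other genes in 6 of 6 libraries by both counts. The mean difference was -19.1 percentage points of clonotypes ± 2.46 (SD, n = 6) and -22.0 of reads ± 5.09. The exact two-sided paired permutation test over the 6 libraries gave p = 0.03125 for each, the smallest value it can give, and 0.0848 after Benjamini-Hochberg adjustment over 19 comparisons, 7 of which reached that smallest value and none of which passed after adjustment. These comprised 10 features (4 J genes, 3 CDR3 lengths, unproductive clonotypes, CDR3s over 15 residues and clonotypes of 1 read), all but the last counted both by clonotypes and by reads. IGKJ5 was above the other genes in 5 of 6 libraries by clonotypes (exact permutation p = 0.09375, adjusted 0.178) and by reads (exact p = 0.0625, adjusted 0.148), with Igll1-/- B-1a replicate 1 the exception.

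Set beside the other IGKV4 genes alone, in tests added after the data had been seen, IGKJ5 shares lay on both sides of the family. These genes joined IGKJ5 in 49.4% to 66.8% of clonotypes and 66.8% to 82.7% of reads, and IGKV4-91 was higher in 4 of 6 libraries by clonotypes (mean difference -1.54 percentage points ± 11.8 SD, exact paired permutation p = 0.875, adjusted 0.906) and in 3 of 6 by reads (exact p = 0.906). IGKJ1 held 14.3% to 23.6% of clonotypes and 6.69% to 16.0% of reads in the family, and IGKV4-91 lay below these in 6 of 6 libraries by both counts. The mean difference from the family was -11.2 percentage points of clonotypes ± 5.02 (SD, n = 6) and -10.4 of reads ± 3.97 (exact p = 0.03125 for each, adjusted 0.0660 over the 19 comparisons with the family). The IGKJ2 share of clonotypes lay above the family in 6 of 6 libraries (9.76 percentage points ± 6.33, exact p = 0.03125, adjusted 0.0660).

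**Figure D2:**
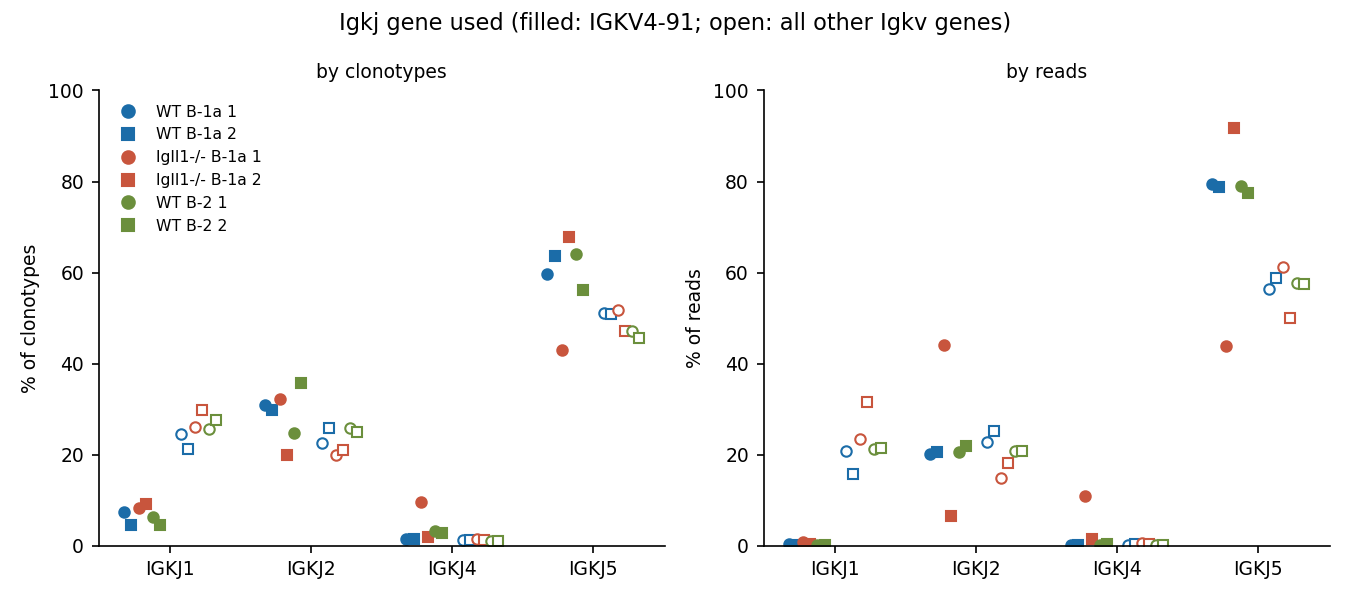
Use of IGKJ1, IGKJ2, IGKJ4 and IGKJ5 as a percentage of clonotypes (left) and of reads (right) in each library; filled points are IGKV4-91 and open points all other V genes of the same library. Filled points for IGKJ1 lie at 9.09% of clonotypes or less and 0.720% of reads or less, below every open point for IGKJ1. Replicate 1 of Igll1-/- B-1a (red circles) stands apart at IGKJ4 and IGKJ5 in both panels, and at IGKJ2 by reads only. By reads, replicate 2 (red squares) lies on the other side of the WT libraries at IGKJ2 and IGKJ5.

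The J gene used within IGKV4-91 did not pass the test in any comparison of groups. For IGKJ5 the log2 difference in share of clonotypes was -0.13 ± 0.18 (SE) between Igll1-/- and WT B-1a (adjusted p = 0.761, edgeR over 180 pairs of V and J genes). It was -0.10 ± 0.21 between Igll1-/- B-1a and WT B-2 (adjusted p = 0.826) and 0.03 ± 0.19 between WT B-1a and WT B-2 (adjusted p = 0.983). IGKJ1 and IGKJ2 of IGKV4-91 did not pass either, with adjusted p values of 0.451 or more. Of all pairs tested, 3.89%, 4.44% and 0.556% passed in the same 3 comparisons. Without Igll1-/- B-1a replicate 1, the first IGKJ5 value was 0.14 and the second 0.17, so their direction depended on that library. With all libraries kept, both also turned when at least 2 reads per clonotype were required.

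The end of the CDR3 is encoded by the J segment, and the residue at position 8 differed with it. Shares at position 8 are given here for productive CDR3s of 9 residues only. Of their reads that joined IGKJ5, 87.9% carried L there in IGKV4-91 and 85.4% in the other V genes. With IGKJ2, Y was found in 55.6% and 52.4% of the IGKV4-91 reads in WT B-1a, 1.32% and 13.8% in Igll1-/- B-1a, and 49.6% and 53.5% in WT B-2, against 84.0% to 92.2% in the other genes. R was found in 41.0% and 42.0%, 11.7% and 78.5%, and 48.1% and 44.6% of the IGKV4-91 reads with IGKJ2 in the same order, against 0.0466% to 2.20% in the other genes. The Igll1-/- libraries thus differed from the WT libraries and from each other, and in replicate 1 F stood in 86.1% of these reads. With IGKJ5, R at position 8 was found in 9.79% and 12.8% of the IGKV4-91 reads in WT B-1a, 0.107% and 1.57% in Igll1-/- B-1a, and 6.12% and 15.4% in WT B-2. The other genes had 0.0656% to 0.271%, a range that includes the first Igll1-/- library. Among 9-residue CDR3s, R at position 8 was found in 16.4% and 19.4% of IGKV4-91 reads in WT B-1a, in 5.41% and 7.96% in Igll1-/- B-1a, and in 14.7% and 22.1% in WT B-2. Both Igll1-/- libraries lay below the 4 WT libraries. In the other V genes 94.7% to 98.7% of the reads with R at this position had joined IGKJ1, whereas in IGKV4-91 at most 1.05% had, and 45.6% to 98.2% had joined IGKJ2. QQGSSIPRT was listed with IGKJ2 and with IGKJ5 in all 6 libraries. It was also listed with IGKJ4, in 67 of its 678 reads in Igll1-/- B-1a replicate 2 and 13 reads or fewer elsewhere, and with IGKJ1, in 46 and 18 reads in WT B-1a and 2 or fewer elsewhere. The counts are pooled over clonotypes that may share a template, and these shares were not tested.

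Nearly all IGKV4-91 rearrangements could encode a chain. Unproductive clonotypes made up 3.80% to 7.19% of a library's IGKV4-91 clonotypes, against 11.9% to 14.6% for the other V genes, and 0.232% to 0.559% of the reads against 1.44% to 5.71%. IGKV4-91 was lower in 6 of 6 libraries by both counts (mean difference -7.47 percentage points of clonotypes ± 1.62 SD, exact paired permutation p = 0.03125, adjusted 0.0848). The other IGKV4 genes lay closer, with 7.76% to 10.1% of clonotypes and 0.650% to 1.26% of reads, and IGKV4-91 was lower than they were in 6 of 6 libraries by both counts (-2.76 percentage points of clonotypes ± 1.76 SD, exact p = 0.03125, adjusted 0.0660). The productive share did not pass between groups: 92.8% and 93.8% of clonotypes in WT B-1a, 96.2% and 93.2% in Igll1-/- B-1a, and 94.4% and 93.8% in WT B-2. The edgeR test of this share returned an adjusted p of 1 for IGKV4-91 in all 3 comparisons and called 0% of 62 V genes, with none at an unadjusted p under 0.05 and none called by DESeq2. A share close to its upper limit leaves this test little room.

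CDR3s of 9 residues prevailed. Among productive clonotypes they made up 72.0% and 73.6% in WT B-1a, 88.8% and 84.4% in Igll1-/- B-1a, and 72.0% and 72.4% in WT B-2. Both Igll1-/- libraries lay above the other 4 by clonotypes. By reads the shares were 92.2% and 88.7%, 96.8% and 87.8%, and 83.2% and 84.4% in the same order. Igll1-/- B-1a replicate 2 thus lay below both WT B-1a libraries by reads. The test of the 9-residue share did not pass between Igll1-/- and WT B-1a (log2 difference 0.25, adjusted p = 0.275) or between Igll1-/- B-1a and WT B-2 (0.26, adjusted p = 0.484), nor between WT B-1a and WT B-2 (0.01, adjusted p = 0.989). Shares of 8, 9 and 10 residues were tested for 112 combinations of V gene and length, of which 0%, 0.893% and 0% passed in the 3 comparisons and 11, 11 and 3 had an unadjusted p under 0.05. DESeq2 called none of them.

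The same difference, counted as the share of any other length, was tested after the data had been seen. CDR3s of other than 9 residues made up 28.0% and 26.4% of productive IGKV4-91 clonotypes in WT B-1a, 11.2% and 15.6% in Igll1-/- B-1a, and 28.0% and 27.6% in WT B-2. This share was lower in Igll1-/- than in WT B-1a (log2 difference -0.997 ± 0.24 SE, adjusted p = 0.0081 by edgeR; 5.88% of 51 V genes passed) and than in WT B-2 (-1.03 ± 0.28, adjusted p = 0.0153; 7.84% passed). Between WT B-1a and WT B-2 it was -0.03 ± 0.24 (adjusted p = 0.956; 0% passed, with 2 V genes at an unadjusted p under 0.05 and none called by DESeq2). The first 2 calls were lost when clonotypes of 1 read were left out (-0.17, adjusted p = 0.839; and -0.50, adjusted p = 0.503), with DESeq2 (adjusted p = 0.151 and 0.125) and when reads were counted (adjusted p = 0.834 and 0.367), as well as without single libraries. Counted among the other lengths were CDR3s over 15 residues, of 1 read each. They numbered 30 and 13 in WT B-1a, 0 and 1 in Igll1-/- B-1a, and 1 and 2 in WT B-2.

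The CDR3s of other lengths that held many reads were few. Among those of 8 residues, QQGSSILT had 884 and 1307 reads in WT B-1a, 5 and 9 in Igll1-/- B-1a, and 224 and 74 in WT B-2. QQGSSMLT had 508 and 671 reads, 0 and 3, and 54 and 136 in the same order. QQGSSIPT, by contrast, had 1041 reads in Igll1-/- B-1a replicate 2, 1 in replicate 1, 193 and 37 in WT B-1a, and 215 and 115 in WT B-2. The largest CDR3 of 10 residues was QQGSSIPRIT, with 578 and 974 reads in WT B-1a, 0 and 92 in Igll1-/- B-1a, and 29 and 138 in WT B-2. QQGSSIPIFT, the next of 10 residues, had 107 reads in Igll1-/- B-1a replicate 1, 3 in WT B-1a replicate 2 and none in the other 4 libraries. QQGSSIPRLT, also of 10 residues, had 147 and 82 reads in WT B-1a and none in the other 4 libraries. QQGSSIPRMYT, of 11 residues, had 74 and 28 reads in WT B-2, 1 read in each WT B-1a library and none in Igll1-/- B-1a. These CDR3s were picked for their reads within their length, so their differences are a description.

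Reads were spread very unevenly over the clonotypes. They cannot be taken as clone sizes, since amino acids and reads without molecular identifiers do not separate independent rearrangements. Of the IGKV4-91 clonotypes of a library, 51.0% to 60.0% had 1 read. The share was similar in the other V genes (57.9% to 59.6%, exact paired permutation p = 0.219, adjusted 0.320). In the other IGKV4 genes it was 54.1% to 58.0% (exact paired permutation p = 0.719, adjusted 0.803). The largest IGKV4-91 clonotype held 36.6% to 68.4% of all IGKV4-91 reads and the 8 largest 87.5% to 92.3%. At least 1000 reads were reached by 4 and 5 clonotypes in WT B-1a, 2 and 2 in Igll1-/- B-1a, and 1 and 1 in WT B-2. The effective number of clonotypes, which is the number of clonotypes with equal reads that would give the same diversity, was 6.55 and 7.75 in WT B-1a, 7.14 and 4.82 in Igll1-/- B-1a, and 6.40 and 8.12 in WT B-2. The groups overlapped in it, although they differ in depth: 33013 and 29970 IGKV4-91 reads in WT B-1a, 4308 and 10015 in Igll1-/- B-1a, and 4216 and 3809 in WT B-2. Clonotypes listed as identical to the germline V gene held 84.0% to 93.5% of the IGKV4-91 reads of a library. They were 4.43% to 11.6% of its IGKV4-91 clonotypes. The median identity over the IGKV4-91 clonotypes of a library was 91.4% to 92.4%. Identity was read from products of 100 to 280 bp and does not cover the whole V segment.

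The main clonotype, QQGSSIPLT with IGKJ5, was the largest in 5 of 6 libraries. It had 19597 and 16055 reads in WT B-1a (59.4% and 53.6% of IGKV4-91 reads), 1374 and 6847 in Igll1-/- B-1a (31.9% and 68.4%), and 2445 and 1873 in WT B-2 (58.0% and 49.2%). Within IGKV4-91 its share thus overlapped between groups. Scaled to library size, it stood in CPM at 71237 and 65524 in WT B-1a, 6421 and 24958 in Igll1-/- B-1a, and 8478 and 6495 in WT B-2, with WT B-1a above all other libraries. The edgeR test over 1323 clonotypes gave log2 differences of -2.12 ± 0.65 (SE) between Igll1-/- and WT B-1a (adjusted p = 0.137), 1.07 ± 0.63 between Igll1-/- B-1a and WT B-2 (adjusted p = 0.293), and 3.19 ± 0.68 between WT B-1a and WT B-2 (adjusted p = 0.209). None of these passed. Without Igll1-/- B-1a replicate 2 the first was -3.41 and passed (adjusted p = 0.0346) and the second was -0.22, in the opposite direction. Without either Igll1-/- library the third passed (adjusted p = 0.0330 and 0.0329), and with DESeq2 it was 3.74 with an adjusted p of 0.0069.

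In Igll1-/- B-1a replicate 1 the largest clonotype was another one. QQGSSIPFT with IGKJ2 had 1576 reads there (36.6% of its IGKV4-91 reads), compared with 70 and 193 in WT B-1a, 33 in Igll1-/- B-1a replicate 2, and 11 and 8 in WT B-2. The same CDR3 was listed in that library with IGKJ4 (345 reads) and with IGKJ5 (330 reads), and all its J genes together gave 2258 reads, or 52.4% of the library's IGKV4-91 reads. Whether these 3 entries are separate rearrangements cannot be read from the amino acids. The IGKJ2 and IGKJ4 shares of this library, given above, rest on them.

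QQGSSIPYT with IGKJ2, clonotype 3, held less of the gene's reads in both Igll1-/- libraries than in the 4 WT libraries, while WT B-1a and WT B-2 overlapped. It had 3339 and 2960 reads in WT B-1a and 325 and 377 in WT B-2, which is 10.1%, 9.88%, 7.71% and 9.90% of IGKV4-91 reads. In Igll1-/- B-1a it had 18 and 77 reads, or 0.418% and 0.769%. Both Igll1-/- libraries lay at least 10-fold below the 4 others as a share of the gene's reads. Clonotype 7, QQGSSILT with IGKJ5, also lay lower in both Igll1-/- libraries, with 2.67% and 4.36% in WT B-1a, 5.31% and 1.94% in WT B-2, and 0.116% and 0.0899% in Igll1-/- B-1a. Per library, the test between Igll1-/- and WT B-1a gave -6.05 ± 0.84 (adjusted p = 0.106, edgeR) for clonotype 3 and -7.22 ± 1.07 (adjusted p = 0.106) for clonotype 7. With DESeq2 both passed in this comparison (adjusted p = 4.8e-08 and 7.3e-09), clonotype 7 also passed in the other two (0.0120 and 0.0122), and clonotype 3 between WT B-1a and WT B-2 (0.0033). QQGSSIPRT with IGKJ2, clonotype 2, held 4.99% and 4.87% of the gene's reads in Igll1-/- B-1a and 7.35% to 8.04% in the 4 WT libraries. QQGSSIPRT with IGKJ5, clonotype 5, had 2265 and 2519 reads in WT B-1a, 2 and 123 in Igll1-/- B-1a, and 163 and 372 in WT B-2.

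**Figure D3:**
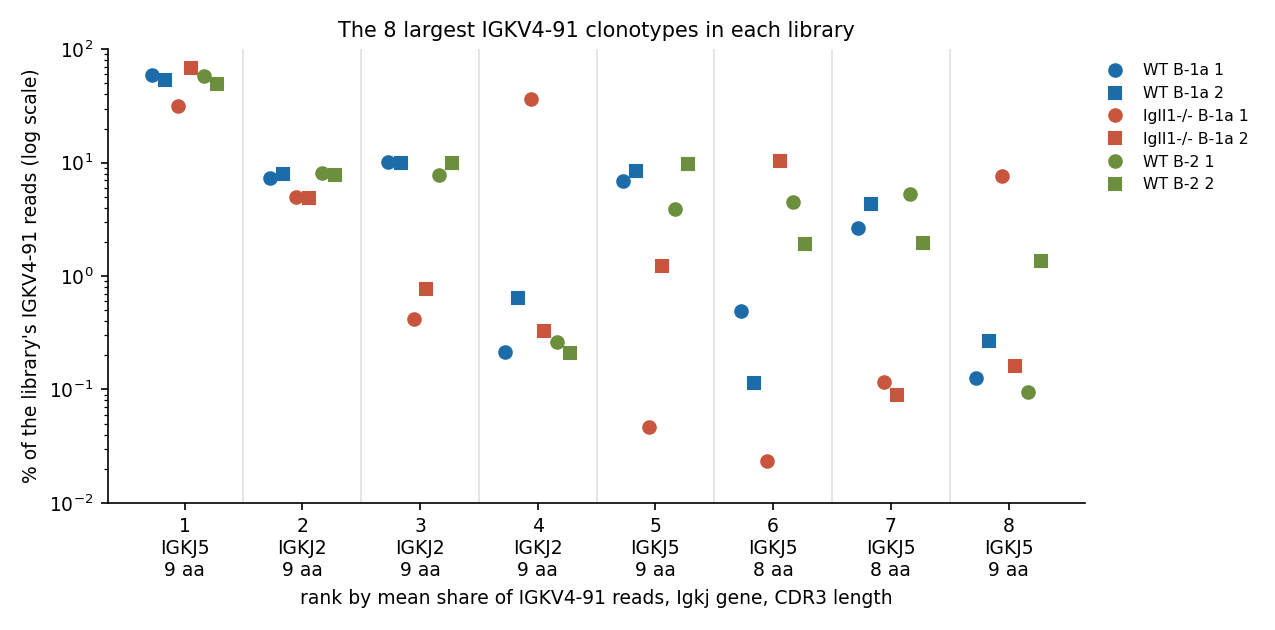
The 8 IGKV4-91 clonotypes of highest mean share, in the order in which their CDR3s are listed, as a percentage of each library's IGKV4-91 reads on a log scale; points are libraries. Clonotype 1 lies between 31.9% and 68.4% everywhere, whereas for clonotypes 3 and 7 both Igll1-/- libraries lie below 1% and all WT libraries above 1.9%.

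Of the 60 IGKV4-91 clonotypes tested for reads, none passed in any comparison with edgeR (lowest adjusted p 0.106, 0.115 and 0.209), and 16, 8 and 25 had an unadjusted p under 0.05. Over all clonotypes 0.0756%, 0% and 0.0756% passed, with 280, 371 and 206 of 1323 at an unadjusted p under 0.05. With DESeq2, 9 of 51, 6 of 42 and 11 of 42 IGKV4-91 clonotypes that received an adjusted p passed, beside 165 of 1117, 178 of 989 and 49 of 989 over all V genes.

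Around the main clonotype lay a cloud of near-identical CDR3s. CDR3s with IGKJ5 that differed from QQGSSIPLT by 1 residue at a position other than 8 numbered 56 and 54 in WT B-1a, 26 and 50 in Igll1-/- B-1a, and 29 and 24 in WT B-2. Their reads added up to 7.81% and 8.42% of the main clonotype's in WT B-1a, 6.04% and 9.92% in Igll1-/- B-1a, and 4.79% and 4.38% in WT B-2. None of them exceeded 1.64% of the main clonotype in its library. Of the 160 such CDR3s that are possible, a stop included, 63 were seen in at least 1 library and 15 in all 6.

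The 5 with the most reads, averaged over the libraries relative to the main clonotype, are named by the residue of the main CDR3, its position and the residue found (Q1R, S4G, S5G, I6M and T9A).
Q1R: RQGSSIPLT
S4G: QQGGSIPLT
S5G: QQGSGIPLT
I6M: QQGSSMPLT
T9A: QQGSSIPLA

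Q1R had 143 and 124 reads in WT B-1a, 8 and 112 in Igll1-/- B-1a, and 6 and 5 in WT B-2. S4G had 107 and 100, 5 and 29, and 13 and 15 reads in the same order. S5G had 73 and 57, 3 and 109, and 3 and 7. I6M had 81 and 84, 3 and 39, and 8 and 2. T9A had 76 and 65, 1 and 39, and 5 and 6. Each was found in all 6 libraries, with more reads in the 3 libraries in which the main clonotype had the most. Relative to the main clonotype the order was another one for S4G, which was highest in WT B-2 replicate 2 (0.801%) and stood at 0.424% in Igll1-/- B-1a replicate 2, while Q1R and S5G were highest in the latter library (1.64% and 1.59%). Position 8 stood apart from the others: CDR3s with another residue there had 13.3% and 17.7% of the main clonotype's reads in WT B-1a, 24.9% and 6.00% in Igll1-/- B-1a, and 8.06% and 26.9% in WT B-2.

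**Figure D4:**
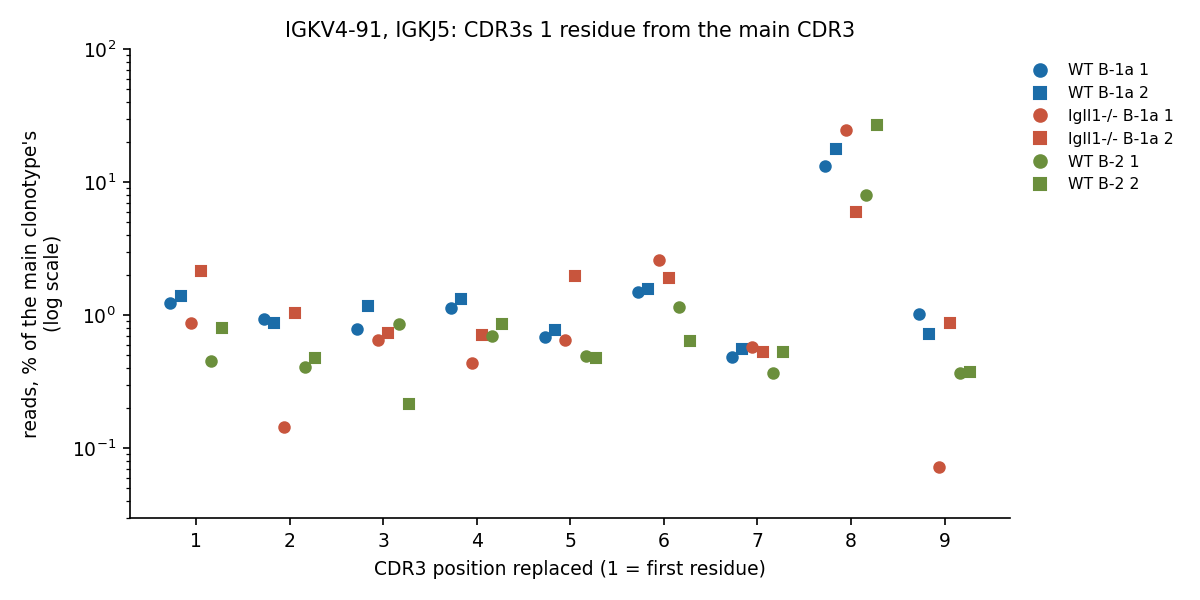
Reads of IGKV4-91 CDR3s with IGKJ5 that differ from the main CDR3 by 1 residue, by the position replaced, as a percentage of the main clonotype's reads on a log scale; points are libraries. Position 8 reaches 6.00% to 26.9%, and every other position stays at 2.62% or less.

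Clonotypes of other V genes had similar clouds. For the 10 largest productive clonotypes of other V genes with 9 residues in each library, the near-identical CDR3s that differed at a position other than 8 had a median of 6.07% to 7.53% of the large clonotype's reads. IGKV4-91 was above this median in both WT B-1a libraries and in Igll1-/- B-1a replicate 2, and below it in the other 3. The part of amplification or sequencing errors in these CDR3s was not tested, because the tables give amino acids and no molecular identifiers.

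Other entries among the 1508 clonotypes also call for care. CDR3s longer than 15 residues numbered 68, of 1 read each, with 39 and 19 in WT B-1a, 2 and 4 in Igll1-/- B-1a, and 1 and 3 in WT B-2. Of these, 34 and 16, 2 and 2, and 1 and 2 run on through the letters FG, any residue and GT, with which the J segment continues after a CDR3. Further, 51 and 46, 28 and 39, and 11 and 7 IGKV4-91 clonotypes carried a CDR3 that had at least 10 times their reads under another V gene of the same library, or 6.25% to 17.7% of the clonotypes and 0.184% to 1.88% of the reads. The main CDR3 was in turn listed under other V genes with 0.941% to 1.45% of its reads. Leaving out either class kept the direction and the call of the IGKV4-91 share of clonotypes in all 3 comparisons.

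Most IGKV4-91 clonotypes were found in 1 library, and those found in all 6 held most of the reads. Size and sharing did not always go together. One clonotype found in all 6 libraries had 5 reads or fewer in each. It was 1 of the near-identical CDR3s around the main clonotype, and the part of that clonotype's size in its sharing was not tested. QQGSSMLT, with 508 and 671 reads in WT B-1a, had 0 in Igll1-/- B-1a replicate 1. Of the 878 combinations of J gene and CDR3, 591 (67.3%) were found in 1 library and 29 (3.30%) in all 6. The other V genes had 69.8% and 3.86%. The 29 held 91.1% and 89.1% of IGKV4-91 reads in WT B-1a, 91.6% and 94.0% in Igll1-/- B-1a, and 90.6% and 85.2% in WT B-2. In the other V genes, the combinations found in all 6 libraries held 86.2% and 86.8%, 88.1% and 87.1%, and 78.5% and 80.7% of reads in the same order. Of the 29 of IGKV4-91, 27 had 9 residues, 22 used IGKJ5 and 4 IGKJ2, 20 started with QQGSS, and 23 differed from the main CDR3 QQGSSIPLT by 1 replaced residue.

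**Figure D5:**
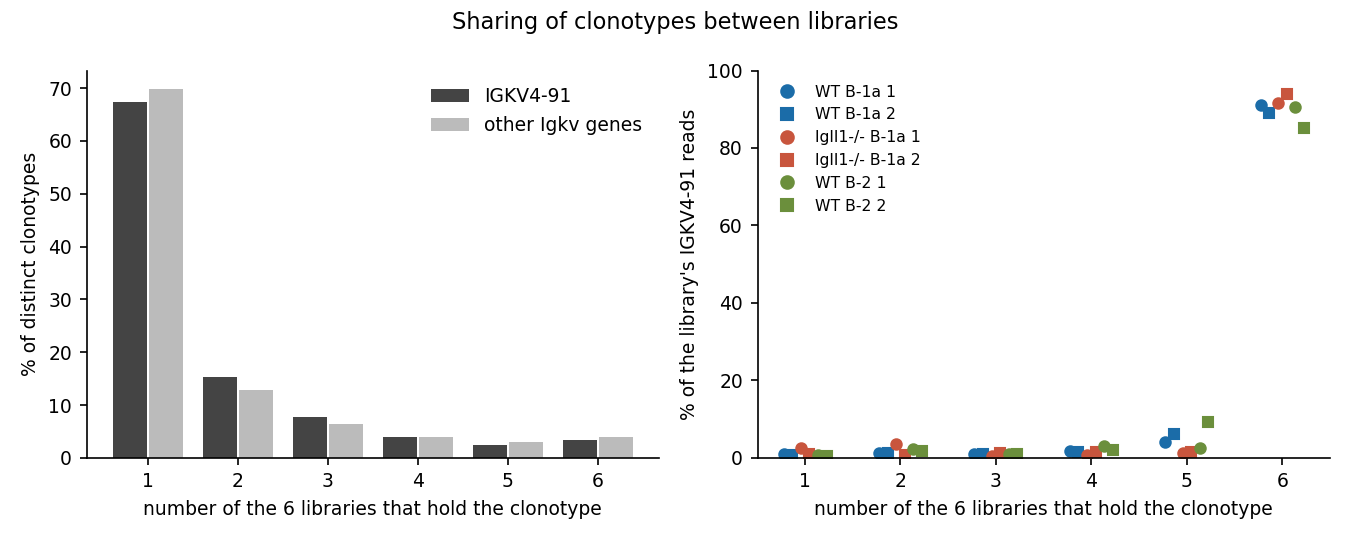
Left, the percentage of distinct clonotypes by the number of libraries that hold them, for IGKV4-91 (dark) and all other V genes (light); right, the percentage of each library's IGKV4-91 reads in the same classes, with points as libraries. The 3.30% of IGKV4-91 clonotypes in all 6 libraries hold 85.2% to 94.0% of the reads.

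Between libraries, the overlap is given as a share of each list, since the lists differ in size. Of the IGKV4-91 clonotypes of WT B-2 replicates 1 and 2, 70.7% and 73.9% were found in WT B-1a replicate 1, against 32.1% and 31.7% for the other V genes. Of those of Igll1-/- B-1a, 42.5% and 53.0% were found there, against 34.0% and 31.3%. In the other direction, 18.7% and 17.6% of the IGKV4-91 clonotypes of WT B-1a replicate 1 were found in the WT B-2 libraries. The other V genes had 40.5% and 39.8% there. In the Igll1-/- libraries 13.9% and 24.5% were found, against 28.0% and 31.4%. In this direction IGKV4-91 thus lay below the other V genes. WT B-1a libraries hold the longest IGKV4-91 lists and the most IGKV4-91 reads, and the part of this depth in the shares was not tested. Both WT B-1a libraries had 66 combinations that no other library had (7.52% of 878, against 1.22% of the 23354 of the other V genes), with 0.997% and 0.981% of their IGKV4-91 reads. Igll1-/- B-1a had 2 such combinations (0.228%, against 0.771%) and WT B-2 had 1 (0.114%, against 2.22%). A further 10 were in both WT B-1a and both Igll1-/- libraries and in neither WT B-2 library (1.14%, against 0.0942%). The 7 (0.797%, against 0.916%) that were in both WT B-1a and both WT B-2 libraries and in neither Igll1-/- library held 0.818% and 0.644% of the reads in WT B-1a and 2.54% and 0.998% in WT B-2. QQGSSIPRIT with IGKJ2 was among the largest absent from Igll1-/- B-1a, with 179 and 149 reads in WT B-1a and 27 and 4 in WT B-2; the 92 reads of this CDR3 in Igll1-/- B-1a replicate 2 carried another J gene. A count of 0 among the 4308 and 10015 IGKV4-91 reads of the Igll1-/- libraries does not show absence from the cells.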

How the data were processed

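The authors amplified rearranged kappa genes from genomic DNA with a degenerate V primer and further primers for segments used in B-1a cells, kept products of 100 to 280 bp, sequenced them, and assigned them with IMGT/HighV-QUEST and IMGT/StatClonotype (versions not given in the sources used here). The deposited tables hold 1 line per clonotype with V gene, J gene, CDR3 amino acids, functionality, the count of reads, the identity to the germline V gene as a percent, and the length in bases of a representative sequence, which was described and not tested. They hold no nucleotide sequence, molecular identifier or coordinate. The heavy chain tables and lines with several V genes entered no IGKV4-91 value, but such lines count in the library totals.

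Clonotypes per V gene were compared with edgeR 4.0.16 (quasi-likelihood, library size = all clonotypes of the library, kept were V genes that reached 10 clonotypes in 2 or more libraries). J gene, productive share and CDR3 length were tested with the V gene's total as offset, for V genes that reached 10 in every library, and reads per clonotype with all reads as library size. P-values were adjusted by Benjamini-Hochberg over all features of a comparison. DESeq2 1.42.0 and the other settings were alternatives. The edgeR fits for V gene, J gene, productive share, CDR3 length and reads per clonotype were tested on simulated data. The fit for the share of other lengths and the DESeq2 fits were not. The spread between simulated libraries was a fixed setting and was not taken from these data. The simulation therefore does not show how the fits perform at the spread of these libraries. With 2 libraries per group, no exact test between groups can reach 0.05. The members and lists, and the named genes (the 8 clonotypes of highest mean share, tested clonotypes that passed, the 5 largest near-identical CDR3s, the 3 V genes of highest Pearson r, the other IGKV4 genes, IGKV14-126 and IGKV7-33), were chosen with earlier results of these data known. CDR3s named outside this rule are among the largest of 8, 10 and 11 residues, chosen after their reads were seen.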

Additional observations from a re-analysis of the deposited data

How the results depend on the processing

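The share of IGKV4-91 among clonotypes kept its direction under all 18 alternatives in each comparison (-2.10 to -0.56, 0.98 to 1.65 and 1.96 to 3.12, as log2 differences of Igll1-/- against WT B-1a, Igll1-/- B-1a against WT B-2 and WT B-1a against WT B-2, the order used throughout). The first lost its call with near-identical clonotypes merged (-0.56), and the second with reads counted (1.03) or at least 10 reads per clonotype (1.02). The cause of these losses was not tested. Leaving out 1 library gave -1.18 to -0.99, 1.01 to 1.21 and 2.12 to 2.27. For IGKJ5, which passed nowhere, the direction turned with at least 2 reads per clonotype (0.22, 0.0168 and -0.20), for the second also with merging (0.0418); without single libraries the values were -0.52 to 0.14, -0.49 to 0.17 and -0.0556 to 0.13. The productive share, also below the threshold everywhere, turned in the second comparison with reads (-0.0019), at least 2 reads (-0.0196), merging (-0.0132) and CDR3s left out that had 10 times the reads under another V gene (-0.0022), and in the third without CDR3s over 15 residues (0.0029); without single libraries it was -0.0016 to 0.0444, -0.0140 to 0.0320 and -0.0197 to -0.0043. The 9-residue share turned in the third comparison with merging (-0.0560); without single libraries it was 0.21 to 0.29, 0.22 to 0.30 and -0.0043 to 0.0278. The share of other lengths lost its first 2 calls with reads counted (-0.32 and -1.08), at least 2 reads (-0.17 and -0.50) and DESeq2 (-1.004 and -1.03), and turned in the third with merging (0.0792); without single libraries it was -1.28 to -0.80 (the call was lost without either WT B-1a library, adjusted p = 0.261 and 0.0783), -1.31 to -0.83 (lost without either WT B-1a library, Igll1-/- replicate 1 or WT B-2 replicate 1, adjusted p = 0.0670 to 0.1004) and -0.0745 to 0.0114. The main clonotype's reads passed in the third comparison with DESeq2 (3.74), and without single libraries gave -3.41 to -1.45, -0.22 to 1.74 and 3.01 to 3.40. QQGSSIPYT with IGKJ2 passed between Igll1-/- and WT B-1a with DESeq2, with the replicate block (-6.22, adjusted p = 0.0457) and without either Igll1-/- library, and QQGSSILT with IGKJ5 passed with DESeq2 alone among 12 alternatives in each comparison (-7.08, -3.49 and 3.59). The replicate numbers do not pair the libraries (correlation of same-numbered deviations over 84 V genes 0.026, 0.006 and -0.18), and with the replicate block the IGKV4-91 share of clonotypes was -1.08, 1.12 and 2.19; the block changed no other call of the results named here, although it called 8 V genes in place of 3 in the third comparison. The number of V genes called ranged over the alternatives from 7 to 31, 6 to 39 and 1 to 12, against 15, 19 and 3. With at least 10 reads per clonotype, IGKV4-91 fell under the minimum for J gene, productive share and length (9 clonotypes in Igll1-/- replicate 1), and these were not run. Fits without 1 library assume that the lone library of its group varies like the others. Depth limits Igll1-/- B-1a and WT B-2 most, with 3809 to 10015 IGKV4-91 reads against 29970 or more in WT B-1a.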
